A study of Arabidopsis thaliana with 27 samples.

Results

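Transcript levels of 2 nitrogen transporter genes, AT2G26690 and AT4G38250, were followed in Arabidopsis leaves infiltrated with Pseudomonas bacteria. They are 2 of the 181 genes named in the platform annotation of an array of 576 probes, and each is represented by 1 probe. AT2G26690 (also named NPF6.2) belongs to the nitrate and peptide transporter family, and AT4G38250 to the amino acid transporter family. The genes were taken by these names, with earlier results of these data known.

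Nitrate that reaches a leaf is either reduced and built into amino acids or stored, mostly in vacuoles, and proton-coupled carriers of the nitrate and peptide transporter family move it across membranes. The product of AT2G26690, also known as NRT1.4, is a low-affinity nitrate carrier that is prominent in petioles and affects how much nitrate they hold. Proteins of the amino acid transporter family move amino acids across the plasma membrane or the vacuole membrane, and so take part in loading, storage and recycling of organic nitrogen. Pseudomonas syringae lives in the space between leaf cells and feeds on host nutrients. Salicylic acid is the hormone of the leaf's defence against such bacteria. CBP60g and CBP60h (also called SARD1) are transcription factors that promote its synthesis, and PAD4 is a lipase-like protein that amplifies the same pathway.

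The 27 arrays fall into 13 groups, all from leaves of 4-week-old plants. Psm, which the labels also give as Pseudomonas syringae ES4326, was infiltrated into 4 genotypes, with leaves taken at 24 h (3 arrays each). They were the triple mutant cbp60g,cbp60h,pad4, a double mutant (cbp60g,cbp60h), the single mutant pad4-1 and wild-type Col-0. Pseudomonas syringae pv. tomato DC3000 hrcC, whose type III secretion is blocked by mutation, was infiltrated into the same 4 genotypes, with leaves taken at 24 h (1 array each) or at 9 h (2 arrays each). A further 3 arrays hold the cbp60h mutant at 9 h after hrcC. All arrays analysed here are of leaves with bacteria, and the labels give the same bacterial dose throughout. The labels name an allele for pad4-1 and none for the other mutations. RNA was made from pools of leaves, 2 from each plant of 3 pots. There are 3 biological replicates, numbered as sets 1 to 3. The hrcC arrays at 24 h are all of set 3, and the hrcC arrays at 9 h are of sets 1 and 2, except that cbp60h has all 3 sets.

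Values are the deposited log2 intensities. Base 2 was read from their range (0.66 to 11.4), and folds hold only on that reading. Tests come from limma over all 576 probes, and a gene is called at an adjusted p under 0.05. No named probe belongs to CBP60g, CBP60h or PAD4, which left the genotypes unchecked here, and 0 of 10 leaf genes listed as tissue markers had a named probe. Array medians ran from 3.90 to 4.53 and were lowest in the triple mutant within each treatment. Their part in the results was measured only through 2 other scalings of the arrays, a common median and quantile normalization, under which the split of calls by direction changed. In whole leaves, fewer cells of a type and less RNA per cell cannot be told apart.

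In the deposited values, AT2G26690 was higher in every array of leaves with Psm than in any array of leaves with hrcC. The 12 Psm arrays ran from 6.12 to 7.78 with a median of 6.52, and the 15 hrcC arrays from 4.31 to 5.92 with a median of 4.70. Such a separation upward was seen for 32 of 576 probes (5.56%), and downward for 24 (4.17%). For AT2G26690 it depends on the scaling of the arrays. The highest hrcC value came from the triple mutant at 9 h, whose array medians were 3.90 to 4.01. With a common array median it would lie above the double mutant's Psm values, whose array medians were 4.50 to 4.53. Between Psm and the hrcC arrays at 9 h, strain and time differ together. The nitrate transporter gene also had its highest mean in the triple mutant within each of the treatments. Over 21 comparisons AT2G26690 was called in 9, always upward, and AT4G38250 in 0. At an unadjusted limma p under 0.05 the counts were 15 for AT2G26690 and 0 for AT4G38250. The 9 comparisons that called AT2G26690 called 6.6% to 60.2% of all probes, and several of them share arrays.

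**Figure D1:**
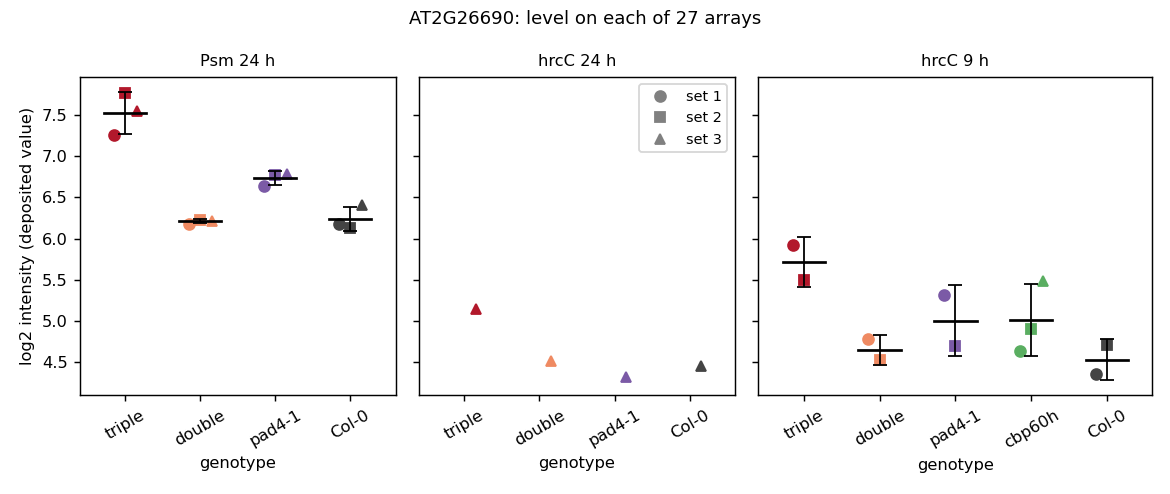
The level of AT2G26690 (log2 intensity, vertical axis) is plotted for each of the 27 arrays by genotype in 3 panels for the treatments, with symbols for the sets, and with the mean and SD where a group has 2 or 3 arrays. As deposited, all Psm arrays lie at 6.12 or above and all hrcC arrays at 5.92 or below, and the triple mutant has the highest mean in each panel.

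With both bacteria sampled at 24 h, AT2G26690 stood at 7.56 with Psm against 5.14 with hrcC in the triple mutant of set 3. In the double mutant of that set it was 6.22 with Psm against 4.51 with hrcC. In pad4-1 it was 6.79 with Psm and 4.31 with hrcC, and in Col-0 6.40 with Psm and 4.45 with hrcC. The Psm value exceeded the hrcC value by 1.71 to 2.48 in these 4 pairs. Averaged over the 4 genotypes and all Psm arrays, the rise was 2.08 (SE 0.16, 95% interval 1.75 to 2.41, limma adjusted p = 1.53e-09), or 4.22-fold. This comparison called 60.2% of all probes, 42.5% upward (245 of 347 calls, against 166 of 357 with a common array median), and the difference of AT2G26690 ranked 49 among 576. The median over all probes was itself 0.29 higher with Psm, and with the common median the rise of AT2G26690 was 1.74. Each hrcC group at 24 h is 1 array, assumed to vary like the other groups.

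Against hrcC at 9 h, where strain and time differ together, AT2G26690 also rose with Psm in each of the 4 genotypes. The rise was 1.82 in the triple mutant (SE 0.25, limma adjusted p = 1.4e-05), where the means were 7.53 ± 0.26 (SD, n = 3) with Psm and 5.71 ± 0.30 (SD, n = 2) with hrcC. The gene rose by 1.56 in double mutant leaves, by 1.74 in pad4-1 leaves and by 1.71 in Col-0 leaves (SE 0.25 each). The limma adjusted p was at most 6.2e-05 in these 3 genotypes. Of all probes, 30.2% were called in the triple mutant (20.1% upward) and 41.3% in the double mutant (32.1% upward). In pad4-1 33.7% were called (24% upward), and 34.2% in Col-0 (24.3% upward). Without replicate 2 at 9 h, the 194 calls in pad4-1 became 128 and the 197 in Col-0 became 131. With a common array median 84 of 188 calls were upward in the triple mutant, 125 of 230 in the double mutant, 88 of 194 for pad4-1 and 108 of 192 for Col-0. Counting each Psm array against the hrcC array of the same genotype and set (taken at 9 h in sets 1 and 2 and at 24 h in set 3), AT2G26690 was higher with Psm in 12 of 12 pairs, by 1.34 to 2.48. The share of all probes higher in every pair was not counted. Against hrcC at 9 h the median over all probes was itself higher with Psm, by 0.16 (triple mutant) to 0.33 (double mutant).

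Between the 2 times after hrcC, AT2G26690 was not called. The mean of the 4 genotypes was 4.60 at 24 h and 4.97 at 9 h, a difference of -0.37 (SE 0.17, limma adjusted p = 0.21, 95% interval -0.72 to -0.02) in a comparison that called 3.65% of probes. Those 21 calls became 13 without double mutant replicate 1, 11 without triple mutant replicate 1 and 36 without Col-0 replicate 2, all at 9 h. The 2 times come from different sets for these genotypes. With the set as a block, which cbp60h and the Psm arrays make possible, the difference was -0.59 (limma adjusted p = 0.172).

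Among genotypes with Psm, AT2G26690 stood at 7.27, 7.78 and 7.56 in the triple mutant, against 6.18, 6.12 and 6.40 in Col-0 (sets 1 to 3). All 3 triple mutant arrays lay above all 3 Col-0 arrays, as for 18.4% of probes, and the difference was 1.30 (SE 0.22, 95% interval 0.83 to 1.76, limma adjusted p = 0.000109), or 2.46-fold. In this comparison 41% of probes were called, 14.6% higher and 26.4% lower, and the difference of AT2G26690 ranked 30 among 576. The median over all probes was -0.14, opposite in sign to the rise of this gene. With a common array median the rise was 1.51, and 117 of 239 calls were higher, against 84 of 236 as deposited.

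With Psm AT2G26690 was called in neither the double mutant nor pad4-1 against Col-0. Its levels in the double mutant were 6.18, 6.23 and 6.22, all within the range of the Col-0 arrays, and the difference from Col-0 was -0.03 (SE 0.22, limma adjusted p = 0.98, 95% interval -0.49 to 0.44). The interval does not reach the 1.30 of the triple mutant. The levels in pad4-1 were 6.64, 6.78 and 6.79, between the triple mutant and Col-0 with no overlap with either. The triple mutant arrays lay above those of pad4-1, as for 13.9% of probes. All pad4-1 arrays lay above all Col-0 arrays, as for 9.38% of probes, but the difference of 0.50 (SE 0.22, 95% interval 0.04 to 0.97) was not called, with an adjusted p of 0.263 from limma. These comparisons called 8.51% of probes in the double mutant and 4.17% in pad4-1. The 49 calls in the double mutant became 32 when Col-0 replicate 3 was left out and 31 when its own replicate 3 was, and the 24 in pad4-1 became 13 without Col-0 replicate 1 or pad4-1 replicate 2.

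Set directly against the double mutant and pad4-1 with Psm, the triple mutant had more AT2G26690 transcript than either. It exceeded the double mutant by 1.32 (SE 0.22, limma adjusted p = 0.000166), a comparison that called 37% of probes, 10.2% of all probes upward (59 of 213 calls, against 103 of 212 with a common array median). This difference ranked 11 among 576. It exceeded pad4-1 by 0.80 (SE 0.22, limma adjusted p = 0.0118), where 25.9% of probes were called, 8.51% upward (49 of 149 calls, against 85 of 161 with a common array median). The double mutant differed from pad4-1 by -0.53 (SE 0.22, limma adjusted p = 0.247, 4.34% of probes called). Those 25 calls became 8 without double mutant replicate 1 or pad4-1 replicate 2, 14 without pad4-1 replicate 1 and 15 without double mutant replicate 3. The rise in the triple mutant exceeded the sum of the differences in the double mutant and pad4-1 by 0.82 (SE 0.31, 95% interval 0.16 to 1.48), a departure that was not called (limma adjusted p = 0.137, 6.25% of probes called). The 36 probes called became 5 when Col-0 replicate 3 was left out, and leaving out the triple mutant's replicates 2 or 3 gave 69 or 10. Leaving out replicates 1 or 3 of pad4-1 gave 12 or 13, and leaving out replicates 2 or 3 of the double mutant gave 15 or 18.

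With hrcC at 9 h, AT2G26690 stood at 5.92 and 5.50 in the triple mutant, against 4.35 and 4.70 in Col-0 (sets 1 and 2). Both triple mutant arrays lay above both Col-0 arrays, as for 13.4% of probes. The difference was 1.19 (SE 0.27, 95% interval 0.62 to 1.76, limma adjusted p = 0.0117), or 2.28-fold, and it ranked 8 among 576. The test called 38 probes (6.6%), 35 lower (6.08%) and 3 higher (0.521%), with AT2G26690 among the higher ones. This split turned on the scaling, since 11 of 36 calls were higher after quantile normalization and 19 of 40 with a common array median. The call was lost without Col-0 replicate 1 (1.01, limma adjusted p = 0.151), without triple mutant replicate 1 (0.98, adjusted p = 0.163), and with only the 4 compared arrays in the fit (adjusted p = 0.125).

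The means of the other mutants lay between these levels after hrcC at 9 h. AT2G26690 stood at 4.77 and 4.52 in the double mutant, at 5.31 and 4.69 in pad4-1, and at 4.63, 4.90 and 5.49 in cbp60h. The values of the double mutant and pad4-1 overlapped those of Col-0 and those of cbp60h were partly above them. The difference from Col-0 was 0.12 in the double mutant (SE 0.27, limma adjusted p = 0.887), 0.48 in pad4-1 (SE 0.27, adjusted p = 0.745) and 0.48 in cbp60h (SE 0.25, adjusted p = 0.228). Of all probes, 1.56% were called for the double mutant, 1.04% for pad4-1 and 9.9% for cbp60h. The 57 calls for cbp60h became 18 without Col-0 replicate 1, 24 without cbp60h replicate 3 and 35 without cbp60h replicate 1, and the 6 for pad4-1 became 3 without either pad4-1 array. With 1 array left out, the difference of AT2G26690 from Col-0 ran from 0.17 to 0.79 in pad4-1 and from 0.24 to 0.67 in cbp60h. The triple mutant exceeded the double mutant by 1.07 (SE 0.27, limma adjusted p = 0.133, 0.174% of probes called) and pad4-1 by 0.71 (SE 0.27, adjusted p = 0.486, 0.694% called), the last running from 0.40 to 1.02 with 1 array left out. The 4 probes called against pad4-1 became 1 without triple mutant replicate 1 or pad4-1 replicate 2, and 2 without triple mutant replicate 2. With a common array median the difference from the double mutant was 1.23 and was called (limma adjusted p = 0.0359). The departure from the summed differences of the double mutant and pad4-1 was 0.59 (SE 0.38, limma adjusted p = 0.683), where limma called 0 probes and 52 had an unadjusted p under 0.05. With 1 array left out it ran from 0.28 to 0.89, and 13 probes were called without Col-0 replicate 1.

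The rise in the triple mutant was not called as different between treatments. It was larger with Psm than with hrcC at 9 h by 0.11 (SE 0.35, 95% interval -0.63 to 0.84, limma adjusted p = 0.939, 5.9% of probes called). The 34 probes called ranged from 11 to 37 with 1 array left out. The lowest count came without triple mutant hrcC replicate 2, and the count was 15 to 22 when replicates 1 or 2 of Col-0 with Psm, replicates 1 or 3 of the triple mutant with Psm, or replicate 2 of Col-0 with hrcC were left out. At 24 h after hrcC, with 1 array per genotype, AT2G26690 stood at 5.14 in the triple mutant, 4.51 in the double mutant, 4.31 for pad4-1 and 4.45 for Col-0. Counting each triple mutant array against Col-0 of the same set and treatment, the gene was higher in 6 of 6 pairs, by 0.69 to 1.65. For the double mutant it was higher in 4 of 6 pairs (-0.18 to 0.43) and for pad4-1 in 4 of 6 (-0.14 to 0.96). The share of all probes with such pair counts was not computed. By a stricter measure, all triple mutant arrays lay above all Col-0 arrays within each of the 3 treatments for 30 of 576 probes (5.21%).

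**Figure D2:**
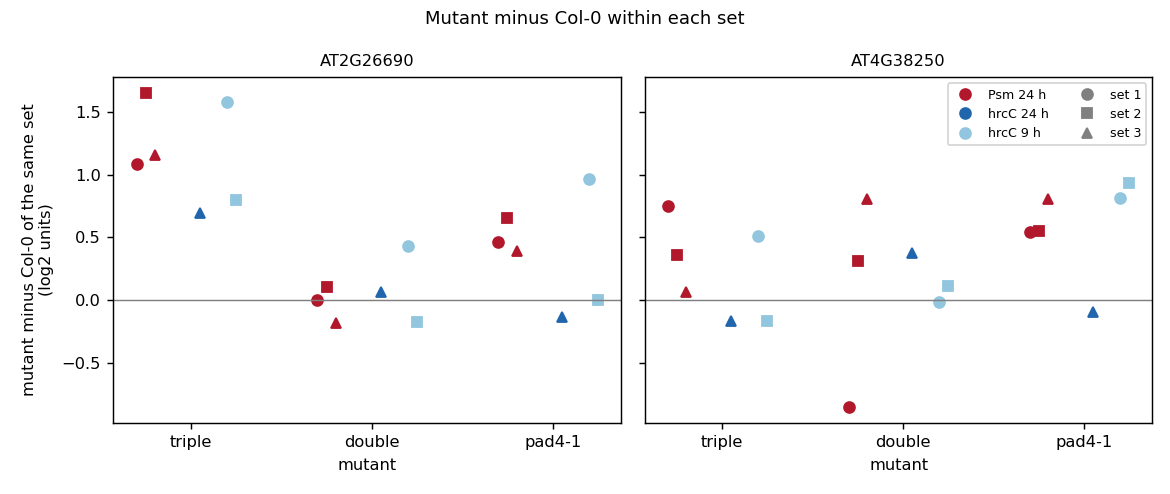
The difference of each mutant from Col-0 of the same set (log2 units, vertical axis) is plotted by mutant for AT2G26690 and AT4G38250, with colours for the treatments and symbols for the sets. For AT2G26690 all 6 triple mutant points lie between 0.69 and 1.65, while those of the double mutant and pad4-1 lie on both sides of 0.

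**Figure D3:**
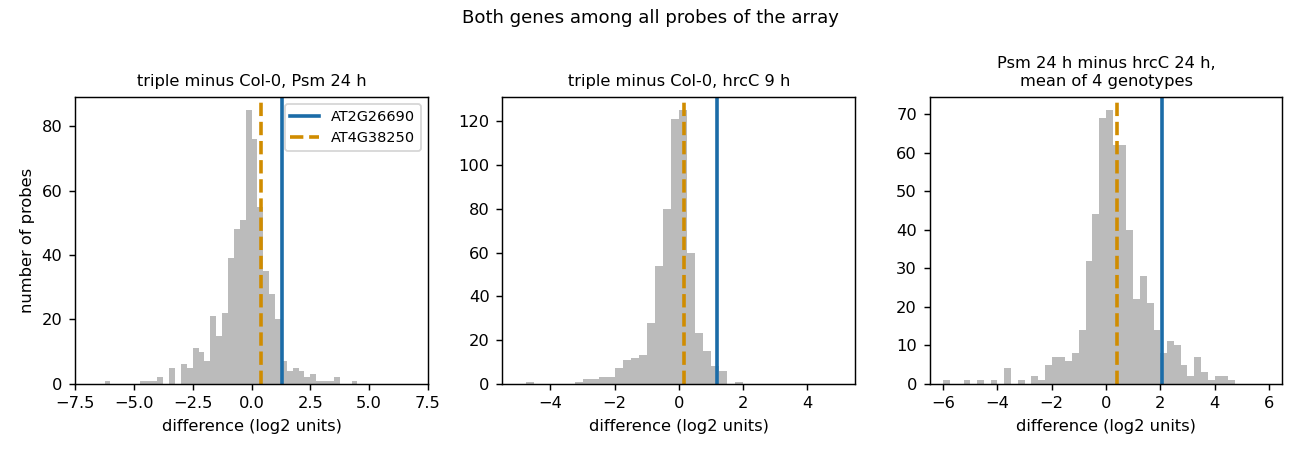
Histograms give the number of probes (vertical axis) by difference (log2 units) for the triple mutant minus Col-0 with Psm and with hrcC at 9 h, and for Psm minus hrcC at 24 h, with lines at both genes. AT2G26690 lies at 1.30, 1.19 and 2.08 in the upper part of each distribution, and AT4G38250 at 0.39, 0.17 and 0.39 closer to its middle.

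In the order of the 13 group means of AT2G26690 as deposited, the 4 Psm groups came first, with gaps of 0.80, 0.50 and 0.03 between them. The triple mutant with Psm (7.53 ± 0.26, SD, n = 3) was followed by pad4-1 (6.74 ± 0.08), Col-0 (6.24 ± 0.15) and the double mutant (6.21 ± 0.02, SD, n = 3 each), of which the last 2 overlapped. The triple mutant with hrcC came next, at 5.71 ± 0.30 (SD, n = 2) at 9 h and 5.14 (n = 1) at 24 h. Then came cbp60h at 5.01 ± 0.44 (SD, n = 3), pad4-1 at 5.0 ± 0.43, the double mutant at 4.65 ± 0.18 and Col-0 at 4.52 ± 0.25 (SD, n = 2 each), all at 9 h after hrcC, and each overlapped the next. The single 24 h arrays of the double mutant, Col-0 and pad4-1 were lowest. The SD pooled over groups was 0.26, below that of most probes (29.5% had a smaller one, and the median was 0.33).

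AT4G38250, the amino acid transporter gene, was not called in any comparison of the bacteria. Its 12 Psm arrays ran from 3.71 to 5.38 with a median of 5.09, and its 15 hrcC arrays from 4.06 to 5.58 with a median of 4.77, so that the ranges overlapped almost throughout. Averaged over the 4 genotypes, Psm and hrcC at 24 h differed by 0.39 (SE 0.25, 95% interval -0.13 to 0.91, limma adjusted p = 0.18), near the 0.29 of the median probe, and by 0.05 with a common array median and -0.03 after quantile normalization. Within set 3 the differences were 0.31 in the triple mutant, 0.51 in the double mutant, 0.98 for pad4-1 and 0.08 for Col-0. Without replicate 1 of the double mutant with Psm, the mean difference was 0.52 and was called (limma adjusted p = 0.0251). Against hrcC at 9 h, the Psm leaves differed by 0.36 in the triple mutant, 0.18 in the double mutant, -0.10 for pad4-1 and 0.14 for Col-0 (SE 0.39 each, limma adjusted p 0.548 to 0.884), and the 3 positive ones turned below 0 after quantile normalization. The hrcC leaves at 24 h differed from those at 9 h by -0.25 (SE 0.26, limma adjusted p = 0.627, -0.40 to -0.09 with 1 array left out).

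**Figure D4:**
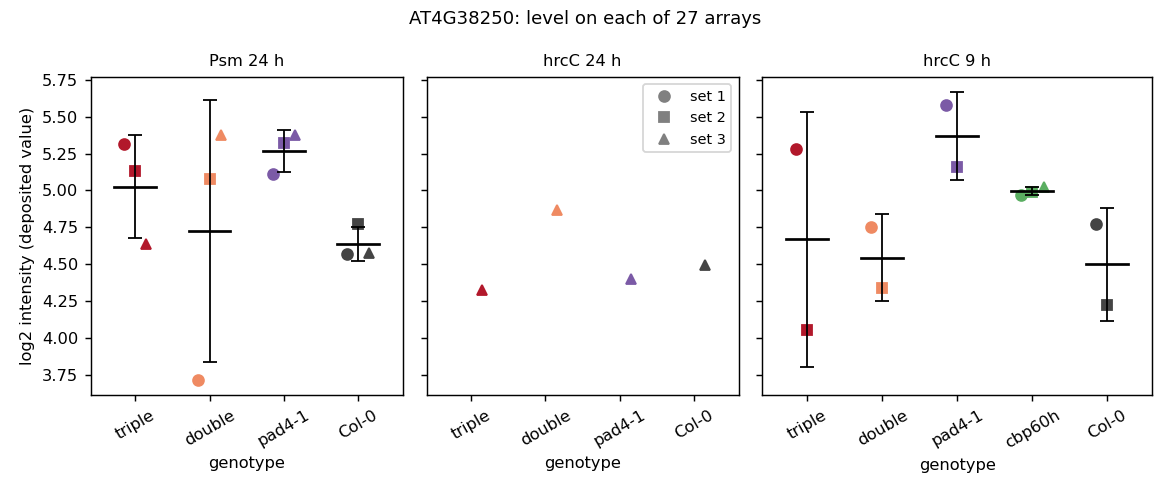
The level of AT4G38250 (log2 intensity, vertical axis) is plotted for each of the 27 arrays by genotype in 3 panels for the treatments, with symbols for the sets, and with the mean and SD where a group has 2 or 3 arrays. Psm and hrcC arrays overlap, and the double mutant array of set 1 with Psm is the lowest of all at 3.71.

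AT4G38250 had its highest means in pad4-1 with Psm and with hrcC at 9 h, though no difference from Col-0 was called. With Psm the gene stood at 5.11, 5.32 and 5.38 in pad4-1 against 4.57, 4.77 and 4.57 in Col-0, a difference of 0.63 (SE 0.35, 95% interval -0.10 to 1.36, limma adjusted p = 0.406). The arrays did not overlap, as for 9.38% of probes. With hrcC at 9 h it stood at 5.58 and 5.16 in pad4-1 against 4.77 and 4.23 in Col-0. That difference of 0.87 (SE 0.43, 95% interval -0.03 to 1.77, limma adjusted p = 0.621) ranked 6 among 576, and the arrays again did not overlap, as for 12.2% of probes. At 24 h after hrcC the single arrays gave 4.40 in pad4-1 and 4.50 in Col-0. Against Col-0 of the same set, pad4-1 was thus higher in 5 of 6 pairs (-0.10 to 0.93), a count not made for all probes.

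In the triple mutant the differences of AT4G38250 from Col-0 were not called. With Psm it stood at 5.31, 5.13 and 4.64 in the triple mutant, and the difference from Col-0 was 0.39 (SE 0.35, limma adjusted p = 0.412). With hrcC at 9 h it stood at 5.28 and 4.06, a difference of 0.17 (SE 0.43, limma adjusted p = 0.894), and at 24 h at 4.32. The 2 triple mutant arrays at 9 h thus lay above and below both Col-0 arrays. Set directly against pad4-1, the triple mutant differed by -0.24 (SE 0.35, limma adjusted p = 0.675) with Psm and by -0.70 (SE 0.43, limma adjusted p = 0.638) with hrcC at 9 h. With 1 array left out these ran from -0.39 to -0.05 with Psm and from -1.31 to -0.09 with hrcC, and the difference from Col-0 with Psm from 0.24 to 0.58.

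The double mutant with Psm had the widest SD of AT4G38250 among the groups. The triple mutant with hrcC at 9 h came close (SD 0.86, n = 2). Values of the double mutant with Psm were 3.71, 5.08 and 5.38 (SD 0.89), against an SD of 0.12 in Col-0 (n = 3 each). The difference from Col-0 was 0.09 (SE 0.35, limma adjusted p = 0.953). Without the set 1 array of the double mutant this difference was 0.59. With hrcC at 9 h the gene stood at 4.75 and 4.34 in the double mutant, a difference of 0.05 (SE 0.43, limma adjusted p = 0.991) from Col-0, and at 24 h it stood at 4.87. The cbp60h mutant gave 4.97, 4.99 and 5.02, above both Col-0 arrays as for 27.6% of probes, with a difference of 0.50 (SE 0.39, limma adjusted p = 0.45, 0.22 to 0.77 with 1 array left out). The pooled SD of this gene was 0.46, and 78.1% of probes had a smaller one, which the widths of its 95% intervals reflect.

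In the order of its 13 group means, AT4G38250 ran from pad4-1 with hrcC at 9 h (5.37 ± 0.30, SD, n = 2) and pad4-1 with Psm (5.27 ± 0.14, SD, n = 3) to the single 24 h hrcC arrays of Col-0 (4.50), pad4-1 (4.40) and the triple mutant (4.32). Between them lay the triple mutant with Psm (5.03 ± 0.35), cbp60h (4.99 ± 0.03), the double mutant with Psm (4.72 ± 0.89) and Col-0 with Psm (4.64 ± 0.12, SD, n = 3 each). Most neighbours in this order overlapped, and the widest gap between neighbouring means was 0.24, less than the pooled SD of 0.46.

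**Figure D5:**
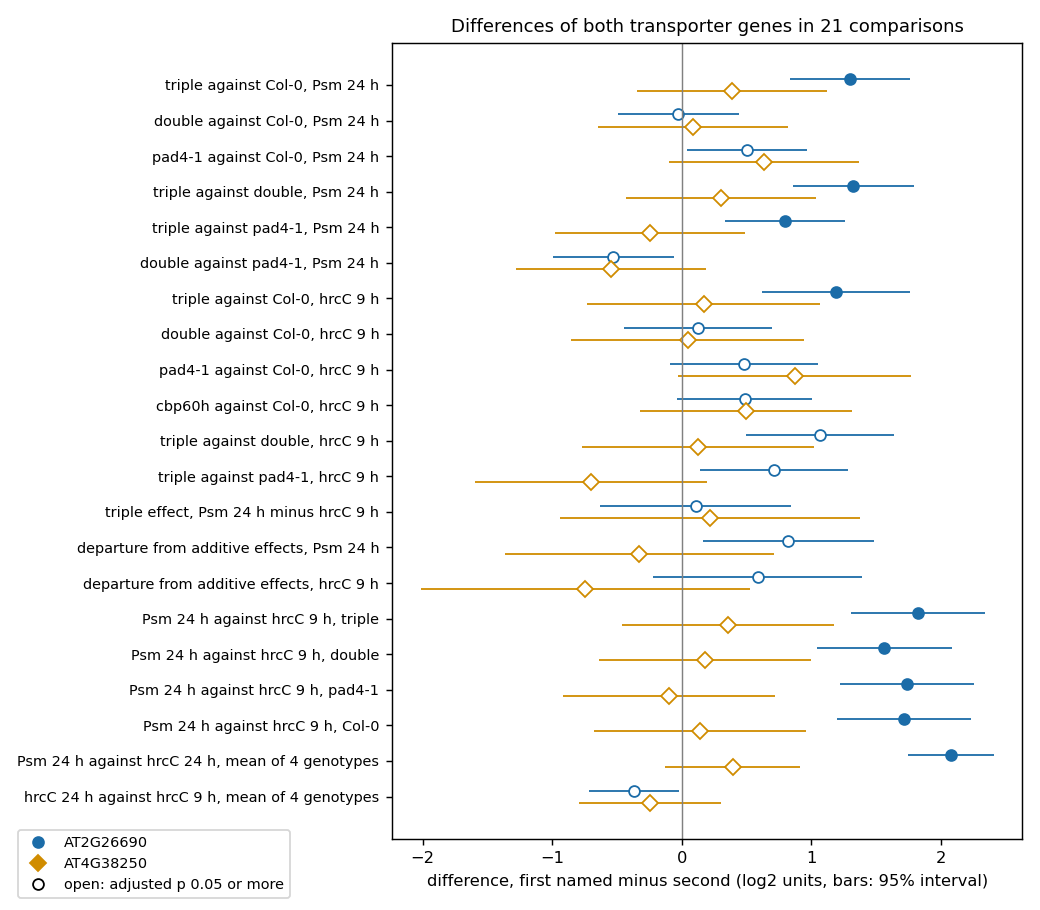
Differences of AT2G26690 (circles) and AT4G38250 (diamonds) are plotted in log2 units with 95% intervals for the 21 comparisons, as the group named first minus the second, with filled symbols for limma adjusted p under 0.05. The 9 filled circles are all to the right of 0, and no diamond is filled.

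The genes whose group means followed AT2G26690 most closely, by Pearson correlation over the 13 group means among the named genes, were AT2G32150 (r = 0.94), AT3G28270 (r = 0.93) and AT2G34810, a berberine bridge enzyme-like gene (r = 0.87). Over the 27 single arrays the correlations were 0.91, 0.86 and 0.87. The points share arrays, sets and array medians. All 3 rose with Psm against hrcC at 24 h, by 3.03, 2.21 and 3.20 (limma adjusted p at most 4.27e-05). In the triple mutant against Col-0 with Psm they differed by 0.31, 1.10 and 0.93, and none was called (limma adjusted p = 0.549, 0.103 and 0.0824). For AT4G38250 the closest were AT1G10585 (r = 0.64), AT4G20150 (r = 0.58) and the aspartyl protease gene AT1G03220 (r = 0.58), with correlations of 0.06, 0.40 and 0.54 over the 27 arrays. Between AT2G26690 and AT4G38250 Pearson's r was 0.45 and Spearman's rho 0.5 over the 13 group means.

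Other genes of nitrogen transport and assimilation could hardly be followed here. Of 83 listed genes for nitrate, ammonium, peptide, amino acid and other transporters and for nitrogen assimilation, 0 had a named probe. GTR1 (AT3G47960), a member of the nitrate and peptide transporter family whose product carries glucosinolates, has a named probe and was picked from the annotation after values had been seen. GTR1 ran from 2.95 to 4.08 (median 3.31) on the 12 Psm arrays, from 3.56 to 4.69 (median 4.29) on the 4 hrcC arrays at 24 h and from 3.15 to 3.86 (median 3.49) on the 8 hrcC arrays of the same genotypes at 9 h. It fell by 0.85 (SE 0.20, limma adjusted p = 0.00111) with Psm against hrcC at 24 h, where 60.2% of probes were called. Of those 347 calls, 102 were downward. The difference of GTR1 was -0.56 once sets were blocked (limma adjusted p = 0.0231), -1.19 with a common array median and -1.22 after quantile normalization. The hrcC level at 24 h comes from 4 arrays of set 3, and it differed from that at 9 h by 0.68 (SE 0.21, limma adjusted p = 0.0724). Against hrcC at 9 h, GTR1 with Psm was called in none of the 4 genotypes, with differences of -0.43 in the triple mutant, 0.15 in the double mutant, -0.12 for pad4-1 and -0.26 for Col-0 (limma adjusted p 0.329 to 0.824). In the triple mutant GTR1 differed from Col-0 by -0.10 (SE 0.28, limma adjusted p = 0.792) with Psm and by 0.07 (SE 0.34, limma adjusted p = 0.937) with hrcC at 9 h. It rose by 1.15 (SE 0.31, limma adjusted p = 0.0296) in cbp60h against Col-0 with hrcC at 9 h, where 9.9% of probes were called. This call was lost without Col-0 replicate 1 (0.80), without cbp60h replicate 3 (0.83, limma adjusted p = 0.126) and with only the compared groups (limma adjusted p = 0.137).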

How the data were processed

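The authors deposited 1 value table of log2 intensities for 27 one-colour arrays of 576 probes, labelled with 1 dye after amplification of total RNA, per the labels' protocols. The base of the logarithm is not stated and was read from the range of the values. Scanner, background correction and normalization: not given in the sources used here. Background signal is not in the table, and the number of arrays limits the precision. Of the 54 values of both genes, 10 occur on another array too, counting any probe there, as do 15.8% of all values in the table.

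The platform annotation names 181 probes and leaves 395 unnamed here. Groups came from the sample titles. One group-means model over all 27 arrays and 576 probes was fitted with limma 3.58.1 in R 4.3.3 (lmFit, eBayes), without a block, with two-sided tests and Benjamini-Hochberg adjustment over all probes. Every adjusted p is from that fit unless another is named. The fit was also run on simulated data with independent noise on each array. Those data held no set effect and no difference between array medians, so the simulation does not cover either. Folds are 2 to the power of the log2 difference.

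The set number in the sample titles was taken to pair the arrays. Deviations from group means of same-set Psm arrays correlated at 0.15 to 0.61 (18 pairs, median 0.34), against a median of -0.18 for different sets. Deviations cancel within a group, so the different-set values are tied to the same-set ones and pushed towards the opposite sign. At 9 h after hrcC the same-set values ran from -0.18 to 0.50 (12 pairs, median 0.22). There, 2 arrays a group fix the different-set values as their mirror. A fit with the set as a block was therefore run as an alternative.

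The genes, lists and comparisons were chosen with earlier results of these data known. Named genes are both transporter genes, listed genes with a probe, and the 3 named genes most correlated with each over group means. GTR1 was added later.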

Additional observations from a re-analysis of the deposited data

How the results depend on the processing

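For each of 21 comparisons, both genes were recomputed under 7 alternatives and with each replicate of the compared groups left out. AT2G26690 was unchanged in direction and call in 145 of 147 results under the alternatives and in 123 of 131 with an array left out. The exceptions were the triple mutant against Col-0 with hrcC at 9 h, not called with only the compared groups in the fit (1.19), and against the double mutant, called with a common array median (1.23), plus those below. AT4G38250 changed sign after quantile normalization for the double mutant against Col-0 with Psm (-0.040), for Psm against hrcC at 24 h (-0.034) and for Psm against hrcC at 9 h in the triple mutant (-0.0013), the double mutant (-0.30) and Col-0 (-0.12). With a common median it did so for the last 2 (-0.21 and -0.066).

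With an array left out, AT2G26690 ran from 0.98 to 1.40 for the triple mutant against Col-0 with hrcC, from -0.082 to 0.057 and -0.052 to 0.30 for the double mutant against Col-0 with Psm and with hrcC, and from -0.11 to 0.32 for the difference of the triple mutant's rise between treatments. AT4G38250 ran from -0.24 to 0.59 for the double mutant against Col-0 with Psm, -0.23 to 0.32 with hrcC, -0.20 to 0.63 for the triple against the double mutant with Psm and -0.49 to 0.73 with hrcC, -0.44 to 0.78 for the triple mutant against Col-0 with hrcC and -0.39 to 0.83 for its difference between treatments. For Psm against hrcC at 9 h it ran from -0.25 to 0.97 (triple mutant), -0.15 to 0.68 (double mutant), -0.31 to 0.11 (pad4-1) and -0.13 to 0.41 (Col-0), and for Psm against hrcC at 24 h from 0.31 to 0.52. A left-out array leaves some groups with 1 array, assumed to vary like the others. The cause of these changes was not tested.

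With the set as a block (the replicate block), AT2G26690 differed by 1.30 (limma adjusted p = 0.000104) between the triple mutant and Col-0 with Psm and by 1.19 (adjusted p = 0.00906) with hrcC, and no call of either gene changed. The count of probes called was 2 in place of 21 for hrcC at 24 h against 9 h. For the triple mutant against Col-0 with hrcC the count of 38 was 9, 18 and 24 without Col-0 replicate 1, triple mutant replicate 1 and triple mutant replicate 2, and 4 with only the compared groups. With named probes alone, a smaller set to test, it was 12, and 62 in place of 236 with Psm. The departure from additive differences with Psm called 6 probes after quantile normalization and 8 with a common median, in place of 36. With only the compared groups in the fit, calls against Col-0 with Psm numbered 22 in place of 49 (double mutant) and 13 in place of 24 (pad4-1), and 12 in place of 25 for the double mutant against pad4-1. With hrcC at 9 h they were 2 in place of 9 (double mutant), 1 in place of 6 (pad4-1), 1 in place of 57 (cbp60h) and 12 in place of 1 (triple against double mutant).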
